A study of Mus musculus with 24 samples.

Results

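The genes described here are 10 immediate early genes of neuronal activity, namely Fos, Fosb, Junb, Egr1, Egr2, Arc, Npas4, Nr4a1, Ier2 and Dusp1. They were taken by symbol from a table of 55421 gene rows, and all 10 were found and passed the filter on low counts, which left 14380 genes. The table holds counts of 3′ tags from the left brain hemisphere of 24 mice of the C57BL/6J strain, 3 months old. Mice labelled Nox2 knockout or wild type were injected intraperitoneally with LPS, a bacterial cell wall product that provokes systemic inflammation, or with PBS as vehicle, once a day on 4 days, with 6 mice in each of the 4 groups. LPS was given at 1 µg per g body weight per day. Neither the labels nor the protocols say how long after the last injection the mice were killed, or how the knockout was made. Cybb encodes Nox2, the subunit of the NADPH oxidase of phagocytes that produces superoxide.

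Immediate early genes are transcribed within minutes of a stimulus, from transcription factors already present in the cell, without new protein synthesis. In neurons the stimulus is usually synaptic activity and calcium entry, which act through kinases on CREB and serum response factor, and the resulting RNAs are short-lived. Fos, Fosb and Junb encode subunits of the AP-1 transcription factor, Egr1 and Egr2 encode zinc finger transcription factors, Npas4 encodes a bHLH-PAS factor and Nr4a1 an orphan nuclear receptor. Arc encodes a postsynaptic protein that promotes removal of AMPA receptors, Ier2 a nuclear protein of the same early class, and Dusp1 a phosphatase that inactivates MAP kinases. Several of them, Junb, Ier2, Egr1 and Dusp1 among them, are also induced by inflammatory stimuli in glia and vascular cells, and in a homogenised hemisphere the cell of origin cannot be told apart. Likewise, fewer cells of a type and less RNA per cell cannot be told apart in such bulk samples.

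CREB binds the palindrome TGACGTCA and its half-site TGACG. The proximal promoters of 7 of the 10 genes were matched in RefSeq (GRCm38.p6, 250 bases before to 50 after a transcription start), and 4 of them are shown because these genes gave the strongest correlations between libraries reported further on. Capitals mark TGACG, or CGTCA where the half-site lies on the opposite strand, and in Dusp1 also the full palindrome.
Fos (chr12:85473640-85473939, plus strand): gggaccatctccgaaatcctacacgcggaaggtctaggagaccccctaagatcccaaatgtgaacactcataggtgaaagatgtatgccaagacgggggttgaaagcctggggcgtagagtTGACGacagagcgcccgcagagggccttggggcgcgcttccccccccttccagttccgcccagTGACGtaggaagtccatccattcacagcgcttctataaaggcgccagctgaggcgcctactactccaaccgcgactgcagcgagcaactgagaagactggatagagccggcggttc
Junb (chr8:84978699-84978998, minus strand): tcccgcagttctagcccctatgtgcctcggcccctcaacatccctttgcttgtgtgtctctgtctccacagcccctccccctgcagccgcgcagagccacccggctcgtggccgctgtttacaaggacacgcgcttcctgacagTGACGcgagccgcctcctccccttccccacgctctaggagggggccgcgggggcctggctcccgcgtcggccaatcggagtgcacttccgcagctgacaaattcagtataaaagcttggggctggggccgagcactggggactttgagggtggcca
Nr4a1 (chr15:101266596-101266895, plus strand): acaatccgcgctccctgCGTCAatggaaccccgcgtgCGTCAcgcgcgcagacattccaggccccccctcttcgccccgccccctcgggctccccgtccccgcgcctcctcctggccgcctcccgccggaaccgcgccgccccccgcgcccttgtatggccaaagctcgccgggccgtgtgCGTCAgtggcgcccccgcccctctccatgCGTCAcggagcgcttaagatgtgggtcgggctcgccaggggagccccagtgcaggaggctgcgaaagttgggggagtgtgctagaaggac
Dusp1 (chr17:26508423-26508722, minus strand): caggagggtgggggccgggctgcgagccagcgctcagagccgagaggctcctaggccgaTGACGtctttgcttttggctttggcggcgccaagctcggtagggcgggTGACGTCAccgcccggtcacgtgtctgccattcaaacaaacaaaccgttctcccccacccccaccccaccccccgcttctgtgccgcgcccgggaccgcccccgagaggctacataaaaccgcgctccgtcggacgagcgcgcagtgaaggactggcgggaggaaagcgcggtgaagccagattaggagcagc
A half-site on either strand was present in the window of 7 of 7 matched genes, against 23% of the 27025 genes in the same table. It began 129 and 66 bases before the start in Fos, 106 bases before it in Junb, and at 4 places in Nr4a1, all on the opposite strand. Dusp1 was the 1 gene of 7 that held the full TGACGTCA, which 2.03% of genes hold, and each palindrome counts as a half-site on both strands. The TATAAA box was found in Fos and Junb, against 15.7% of genes, and the CArG box bound by serum response factor in Egr2 alone of the 7, against 1.81% of genes. Arc, Egr1 and Ier2 had no window, and sites farther than 250 bases before a start were not searched. Where a gene had several annotated starts, a match in any window was counted. These are matches of letters in a window and do not show binding.

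Libraries held 2340184 to 5256169 counts, so that 3 counts corresponded to 0.571 to 1.28 CPM, that is counts per 1000000 counts in the library. Levels below are CPM, and 3′ tags, of which each transcript gives 1, need no correction for length. Cybb was measured at 66.7 to 77.8 CPM in libraries labelled knockout after LPS and 62.2 to 75.2 CPM in those labelled knockout after PBS, against 15.6 to 33.8 CPM in wild-type libraries after LPS and 0.85 to 2.47 CPM in wild-type libraries after PBS. The deposited tags go against the label, and since they lie at the 3′ end they do not check a deletion elsewhere in the gene; the groups are therefore named as labelled. In the wild-type LPS group, mice 1 and 2 stood apart from the rest, with chi-square values per degree of freedom of up to 4.74 over genes, against 3.52 at most within any other group. Where leaving them out changed a call, the value without them is given.

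Egr1 was the most abundant of the 10 genes, with a mean of 351 CPM over the 24 libraries, followed by Junb at 100 (25.2 SD), Arc at 90.5 (20.1 SD) and Nr4a1 at 89.5 CPM (21.5 SD, n = 24 each). Junb, Arc and Nr4a1 lay within each other's spread. Dusp1 at 45.9 CPM and Fos at 35.5 CPM formed the next step, and Fosb (15.6 CPM), Npas4 (15.1 CPM), Ier2 (12.8 CPM) and Egr2 (9.7 CPM) the lowest. The smallest count in any library was 10, for Egr2, so every gene was detected in every library. Between the highest and the lowest library the levels differed by 1.7-fold for Egr1 and by 3.96-fold for Npas4, the narrowest and the widest range of the 10.

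**Figure D1:**
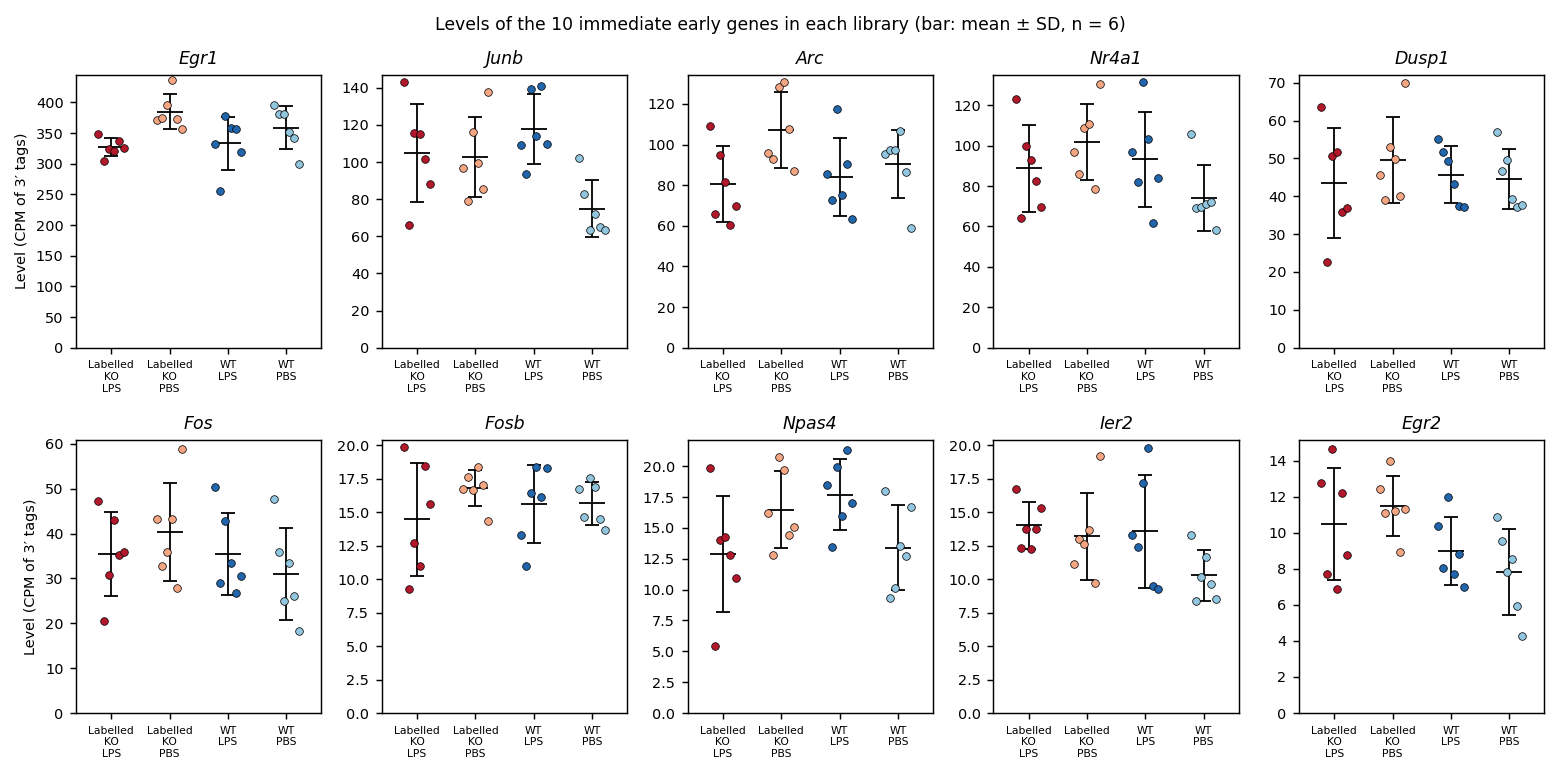
Level of each immediate early gene in every library (vertical axis, CPM of 3′ tags, starting at 0) in the 4 groups, with the mean and SD of 6 mice as bars. Egr1 in the labelled knockout has all 6 LPS points below all 6 PBS points, and Junb in the wild type has 5 of 6 LPS points above every PBS point.

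After 4 days of LPS the immediate early genes did not move as a block. In mice labelled knockout Egr1 and Arc fell and none of the 10 rose, while in wild-type mice Junb rose and none fell. The calls are from edgeR's quasi-likelihood test at a Benjamini-Hochberg adjusted p under 0.05 over all 14380 genes. In mice labelled knockout 2 of 10 were called, where 10.9% of all genes were called (7.05% higher and 3.82% lower). In wild-type mice 1 of 10 was called, where 18.1% of all genes were called (10.9% higher and 7.12% lower). With 10 genes, shares of that order lie near the background and are not read as a result about these genes. The median log2 change of the 10 was -0.16 in mice labelled knockout, where that of all genes was -0.0015, and 0.14 in wild-type mice, where that of all genes was -0.0088.

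Among the AP-1 subunits Junb stood out. In mice labelled knockout its levels spanned 66.3 to 143 CPM after LPS with a median of 109 CPM, against 79.1 to 138 CPM after PBS with a median of 98.3 CPM. In wild-type mice they spanned 93.7 to 141 CPM after LPS with a median of 112 CPM, against 63.2 to 102 CPM after PBS with a median of 68.6 CPM. The groups labelled knockout overlapped almost fully, whereas 5 of 6 wild-type LPS mice lay above every wild-type PBS mouse. Junb changed by 0.06 ± 0.12 (log2, SE) in mice labelled knockout (edgeR adjusted p = 0.854) and rose 1.56-fold in wild-type mice, a log2 change of 0.64 ± 0.13 (edgeR adjusted p = 0.000141). An exact permutation test of log2 CPM on the 12 wild-type libraries gave a two-sided unadjusted p of 0.00433. The gene lies at chr8:84974484-84978718 (GRCm38, minus strand), where its annotated span overlaps that of Prdx2 on the opposite strand. No source used here says whether the counting used strand. Prdx2 itself changed by -0.11 ± 0.05 in mice labelled knockout (edgeR adjusted p = 0.25) and by 0.08 ± 0.05 in wild-type mice (edgeR adjusted p = 0.361).

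Fos, the partner most often used as a marker of active neurons, spanned 20.4 to 47.1 CPM after LPS in mice labelled knockout (median 35.6 CPM), against 27.8 to 58.9 CPM after PBS (median 39.5 CPM). In wild-type mice it spanned 26.8 to 50.3 CPM after LPS (median 31.9 CPM), against 18.4 to 47.6 CPM after PBS (median 29.7 CPM). The groups overlapped in both genotypes. The log2 change was -0.15 ± 0.16 in mice labelled knockout (95% interval -0.48 to 0.18) and 0.15 ± 0.17 in wild-type mice (95% interval -0.19 to 0.48), with edgeR adjusted p of 0.685 in the labelled knockout and 0.617 in the wild type. Fosb averaged 14.5 ± 4.22 CPM after LPS and 16.8 ± 1.34 CPM after PBS in mice labelled knockout, and 15.6 ± 2.91 CPM after LPS and 15.7 ± 1.6 CPM after PBS in wild-type mice (SD, n = 6 each). Its log2 change of -0.21 ± 0.14 in mice labelled knockout and -0.02 ± 0.14 in wild-type mice passed in neither (edgeR adjusted p = 0.406 in the labelled knockout and 0.959 in the wild type).

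Egr1, which lies on chromosome 18, fell in mice labelled knockout with no overlap of the groups. Its levels there spanned 304 to 348 CPM after LPS with a median of 325 CPM, against 357 to 436 CPM after PBS with a median of 374 CPM. In wild-type mice they spanned 256 to 378 CPM after LPS with a median of 344 CPM, against 300 to 396 CPM after PBS with a median of 366 CPM. All 6 LPS mice labelled knockout lay below all 6 PBS mice labelled knockout, while the wild-type groups overlapped. The share of all genes whose groups did not overlap was not computed, so the lack of overlap has no background here. The fall was 0.846-fold, a log2 change of -0.24 ± 0.06 (edgeR adjusted p = 0.00729), and the exact two-sided permutation p in mice labelled knockout was 0.00216, unadjusted and the smallest that design allows. In wild-type mice the log2 change was -0.11 ± 0.06 (95% interval -0.24 to 0.01, edgeR adjusted p = 0.229). Egr2, the scarcer zinc finger factor, averaged 10.5 ± 3.13 CPM after LPS and 11.5 ± 1.68 CPM after PBS in mice labelled knockout, and 8.99 ± 1.87 CPM after LPS and 7.83 ± 2.39 CPM after PBS in wild-type mice (SD, n = 6 each). Neither difference passed, with log2 changes of -0.11 ± 0.17 in mice labelled knockout (edgeR adjusted p = 0.802) and 0.14 ± 0.19 in wild-type mice (edgeR adjusted p = 0.681).

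Arc (chr15:74669083-74672570, minus strand) was the other gene that fell in mice labelled knockout. It spanned 60.6 to 109 CPM after LPS there (median 75.8 CPM), against 86.9 to 131 CPM after PBS (median 102 CPM). In wild-type mice it spanned 63.2 to 118 CPM after LPS (median 80.4 CPM), against 59.0 to 107 CPM after PBS (median 96.3 CPM). In mice labelled knockout 4 of 6 LPS animals lay below every PBS animal, and in wild-type mice 1 of 6 LPS animals lay above every PBS animal. The log2 change was -0.41 ± 0.12 in mice labelled knockout, 0.755-fold (edgeR adjusted p = 0.0237), and -0.13 ± 0.12 in wild-type mice (edgeR adjusted p = 0.532). The Arc call was lost in 7 of 33 alternative settings, with an adjusted p of 0.125 in DESeq2, 0.148 with robust empirical Bayes and 0.0598, 0.0823 and 0.0728 without replicates 2, 5 and 6 of the labelled knockout LPS group. It was also lost without replicates 3 and 4 of the labelled knockout PBS group, at 0.0872 and 0.0969. These 5 refits each left out a library of the compared groups. The 33 also hold refits without a wild-type library, which is in neither group compared, and the exact permutation test, counted at its unadjusted p (0.0346). Arc was the gene whose deviations from the group mean went most closely with library depth (Pearson r = 0.673 over 24 libraries, permutation p = 0.00124, 0.0136 adjusted over 11 relations; Spearman rho = 0.651, permutation p = 0.00124, adjusted 0.0136; r = 0.542 without the 2 libraries farthest in depth), and the part of depth in its fall was not tested.

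Npas4, the most neuron-restricted of these factors, showed opposite signs. It spanned 5.39 to 19.9 CPM after LPS in mice labelled knockout (median 13.4 CPM), against 12.8 to 20.7 CPM after PBS (median 15.6 CPM). In wild-type mice it spanned 13.4 to 21.3 CPM after LPS (median 17.8 CPM), against 9.32 to 18 CPM after PBS (median 13.2 CPM). The groups overlapped in both genotypes, though 3 of 6 wild-type LPS mice lay above every wild-type PBS mouse. Npas4 did not pass in either, at -0.31 ± 0.17 in mice labelled knockout (edgeR adjusted p = 0.299) and 0.43 ± 0.17 in wild-type mice (edgeR adjusted p = 0.0748).

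Nr4a1 spanned 64.0 to 123 CPM after LPS in mice labelled knockout (median 87.6 CPM), against 78.4 to 130 CPM after PBS (median 103 CPM). In wild-type mice it spanned 61.6 to 132 CPM after LPS (median 90.4 CPM), against 58.1 to 106 CPM after PBS (median 70.1 CPM). Again the groups overlapped, and 5 of 6 wild-type LPS mice exceeded the wild-type PBS mean while 5 of 6 labelled knockout LPS mice lay under the labelled knockout PBS mean. The log2 changes of -0.18 ± 0.13 in mice labelled knockout (edgeR adjusted p = 0.491) and 0.32 ± 0.14 in wild-type mice (edgeR adjusted p = 0.0947) did not pass. Ier2 averaged 14 ± 1.76 CPM after LPS and 13.2 ± 3.25 CPM after PBS in mice labelled knockout, and 13.6 ± 4.21 CPM after LPS and 10.3 ± 1.91 CPM after PBS in wild-type mice (SD, n = 6 each). Its log2 change was 0.11 ± 0.16 in mice labelled knockout (edgeR adjusted p = 0.78) and 0.40 ± 0.17 in wild-type mice (edgeR adjusted p = 0.0891), and passed in neither. The MAP kinase phosphatase Dusp1 averaged 43.6 ± 14.5 CPM after LPS and 49.6 ± 11.3 CPM after PBS in mice labelled knockout, and 45.7 ± 7.54 CPM after LPS and 44.6 ± 7.92 CPM after PBS in wild-type mice (SD, n = 6 each). Its log2 change was -0.13 ± 0.14 in mice labelled knockout (edgeR adjusted p = 0.667) and 0.01 ± 0.14 in wild-type mice (edgeR adjusted p = 0.969). Its annotated span overlaps those of Ergic1 and Gm8225 on the opposite strand, so its counts are uncertain where strand was not used. It also overlaps AC122252.4 and AC122252.1 on the same strand, which use of strand would not resolve.

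Npas4, Nr4a1 and Ier2 in wild-type mice thus lay between an adjusted p of 0.05 and 0.1, and single libraries were among the settings that moved them across. With wild-type PBS mouse 1 left out, 4 of the 10 genes were called there. With wild-type LPS mouse 5 left out 3 were called, and with wild-type LPS mouse 2 or 6 or labelled knockout LPS mouse 2 left out 2 were. Junb in wild-type mice and Egr1 in mice labelled knockout kept their calls in all 33 alternatives, with log2 changes of 0.58 to 0.75 for Junb and of -0.26 to -0.20 for Egr1. For each gene these include refits without a library of the other genotype and the permutation test at its unadjusted p.

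**Figure D2:**
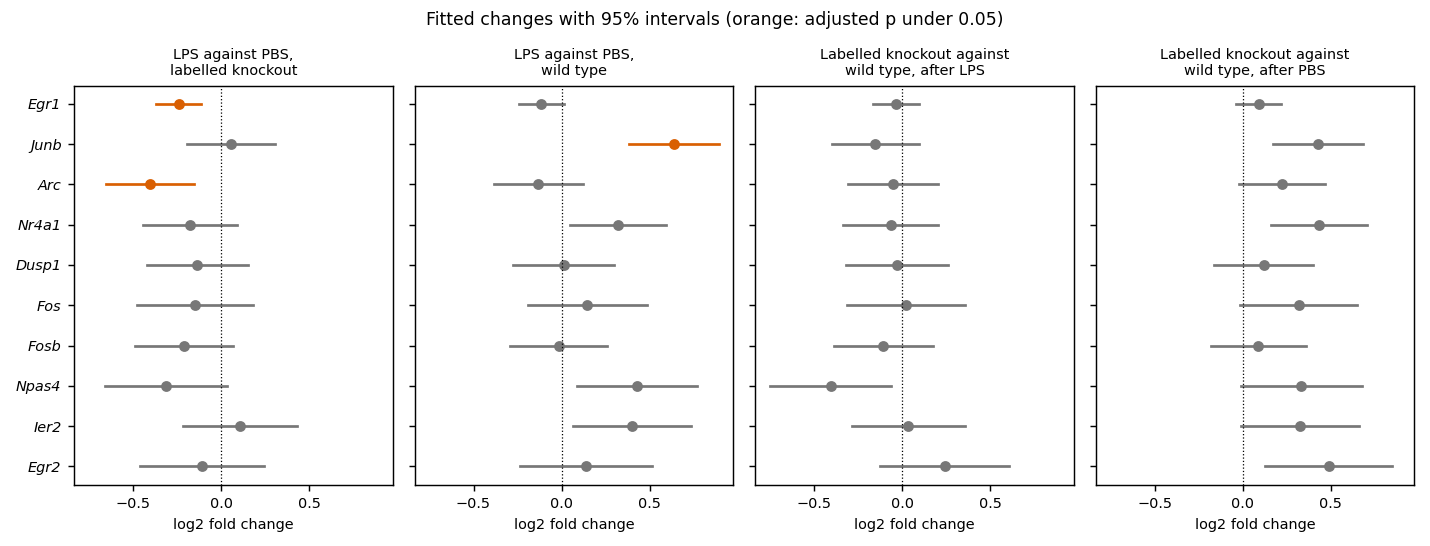
Fitted log2 fold changes (horizontal axis) of the 10 genes with 95% intervals in 4 comparisons, in orange where the adjusted p is under 0.05. In the rightmost panel all 10 points lie above 0 without any passing, and the 3 orange points are Egr1 and Arc in the labelled knockout and Junb in the wild type.

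Setting mice labelled knockout against wild type, no immediate early gene passed the test after either injection. After LPS 0 of 10 were called, where 1.05% of all genes were called (0.264% higher and 0.786% lower), 3 log2 differences were above 0 and 7 below, and the median was -0.04. Npas4 alone had an unadjusted p under 0.05 after LPS, with 12.9 ± 4.73 CPM in mice labelled knockout and 17.7 ± 2.85 CPM in wild-type mice (SD, n = 6 each), a log2 difference of -0.41 ± 0.17 (edgeR adjusted p = 0.32). DESeq2 also called 0 of 10 after LPS.

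After PBS 0 of 10 were called, where 0.132% of all genes were called (0.0417% higher and 0.0904% lower), yet all 10 log2 differences were above 0. Their median was 0.32, where that of all genes was -1e-04. The same sign in all 10 was found in each alternative and with any 1 of the 24 libraries left out, but these genes deviated together between libraries, so they are not 10 independent measurements. Junb averaged 103 ± 21.5 CPM in mice labelled knockout and 74.8 ± 15.4 CPM in wild-type mice (SD, n = 6 each), a log2 difference of 0.43 ± 0.13. Nr4a1 averaged 102 ± 18.8 CPM in mice labelled knockout and 74.2 ± 16.4 CPM in wild-type mice, a log2 difference of 0.43 ± 0.13. Egr2 averaged 11.5 ± 1.68 CPM in mice labelled knockout and 7.83 ± 2.39 CPM in wild-type mice, a log2 difference of 0.49 ± 0.18. All 6 mice labelled knockout exceeded the wild-type mean for each of these 3 genes, and for Egr2 5 of 6 exceeded every wild-type mouse. These 3 had unadjusted p under 0.05, with edgeR adjusted p of 0.284 for Junb, 0.294 for Nr4a1 and 0.403 for Egr2. Exact permutation tests on the 12 PBS libraries gave two-sided unadjusted p of 0.0281 for Junb, 0.0216 for Nr4a1 and 0.013 for Egr2. The estimates ran down to 0.09 ± 0.06 for Egr1 and 0.09 ± 0.13 for Fosb. DESeq2 called 0 of 10 here. With no filter on low counts Junb passed at 0.42 ± 0.07 (edgeR adjusted p = 1.59e-07) and Nr4a1 at 0.43 ± 0.07 (edgeR adjusted p = 1.35e-07). Both estimates hardly moved from the main fit, and the SE was smaller than the 0.13 found there. With the 2 groups fitted alone Nr4a1 passed (edgeR adjusted p = 0.0403).

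The difference between the genotypes in the LPS change was tested as an interaction, which uses the same 24 mice as the comparisons above and so repeats part of their information. None of the 10 passed, where 0.00695% of all genes did. All 10 estimates were below 0 with a median of -0.28, and the 3 with unadjusted p under 0.05 were Npas4 at -0.74 ± 0.24, Junb at -0.58 ± 0.18 and Nr4a1 at -0.50 ± 0.19 (log2, SE; edgeR adjusted p = 0.293, 0.277 and 0.357). With wild-type LPS mice 1 and 2 left out the Junb interaction passed, at -0.67 with an edgeR adjusted p of 0.0374. Those 2 mice had summed olfactory bulb markers of 24 and 19.1 CPM, against 58 to 70.7 CPM in the rest of their group. Mice labelled knockout had 15.9 to 22.8 CPM after LPS and 16.8 to 29.2 CPM after PBS, and wild-type PBS mice 19.6 to 102 CPM. The part of olfactory bulb content in the interaction was not tested. DESeq2 on all 24 libraries called 0 of 10. With no filter on low counts edgeR called Npas4, Junb and Nr4a1, at similar estimates with smaller SE. They were -0.72 ± 0.19 for Npas4, -0.56 ± 0.09 for Junb and -0.48 ± 0.09 for Nr4a1.

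Genes of related function gave a setting for these values. Of 33 other rapidly induced genes 29 were tested, and LPS raised 4 and lowered 1 of them in mice labelled knockout, where 7.05% of all genes were called higher and 3.82% lower. It raised 7 and lowered 1 in wild-type mice, where 10.9% of all genes were called higher and 7.12% lower. The list had median log2 changes of -0.09 in mice labelled knockout and 0.08 in wild-type mice, where all genes had -0.0015 in mice labelled knockout and -0.0088 in wild-type mice. Ier3, an early gene strongly responsive to NF-kB, rose by 1.257 ± 0.12 in mice labelled knockout and 1.48 ± 0.11 in wild-type mice (log2, SE; the larger edgeR adjusted p was 9.72e-12). Zfp36, which encodes the mRNA-destabilising protein tristetraprolin, rose by 0.74 ± 0.18 in mice labelled knockout and 0.81 ± 0.17 in wild-type mice. Klf6, a zinc finger factor, rose by 0.23 ± 0.07 in mice labelled knockout and 0.49 ± 0.07 in wild-type mice. Maff, a small Maf factor, was the other gene that rose in mice labelled knockout, by 1.42 ± 0.34, and Nr4a2, the relative of Nr4a1, was the 1 that fell there, at -0.28 ± 0.08. In wild-type mice Nfil3, a bZIP repressor, was the 1 that fell, at -0.45 ± 0.16. Klf6 in mice labelled knockout, Nr4a2 and Nfil3 were named after their values were seen. After LPS the AP-1 subunit gene Fosl2 and the pseudokinase gene Trib1 were lower in mice labelled knockout than in wild-type mice, with log2 differences of -0.54 ± 0.10 for Fosl2 (edgeR adjusted p = 0.00215) and -0.33 ± 0.08 for Trib1 (edgeR adjusted p = 0.0376). Jun, with 0.14 ± 0.07 (edgeR adjusted p = 0.43), was next by p and did not pass. After PBS 0 of the 29 passed, and the smallest p belonged to Per1, a clock gene (0.31 ± 0.07, edgeR adjusted p = 0.0582), Klf6 (0.24 ± 0.07, 0.294) and Jun (0.21 ± 0.07, 0.315).

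Of 18 slower effector genes that depend on neuronal activity, LPS lowered 6 and raised 1 in mice labelled knockout, where 3.82% of all genes were called lower, and lowered 10 and raised 1 in wild-type mice, where 7.12% of all genes were. The others did not pass. The median log2 change was -0.18 in mice labelled knockout and -0.23 in wild-type mice, where all genes had -0.0015 in mice labelled knockout and -0.0088 in wild-type mice. Rgs4, a regulator of G protein signalling, fell in both, at -0.44 ± 0.05 in mice labelled knockout and -0.41 ± 0.05 in wild-type mice (the larger edgeR adjusted p was 5.89e-08). Lingo1, a neuronal membrane protein, also fell in both, at -0.25 ± 0.05 in mice labelled knockout and -0.26 ± 0.06 in wild-type mice. The somatostatin gene Sst fell in both as well, at -0.28 ± 0.06 in mice labelled knockout and -0.22 ± 0.05 in wild-type mice, and Rasgrp1, a Ras activator, fell in wild-type mice at -0.36 ± 0.06. The 1 gene that rose in both was Ptgs2, the inducible cyclooxygenase, at 0.88 ± 0.20 in mice labelled knockout and 0.67 ± 0.20 in wild-type mice, which was named after its values were seen. Of 22 genes of the signalling route from receptor to nucleus, 0 rose and 1 fell in mice labelled knockout, where 10.9% of all genes were called, and 2 rose and 3 fell in wild-type mice, where 18.1% were. These counts lie near or under the background and are not read as a result about the route. Mef2c, an activity-regulated transcription factor, fell in both, at -0.21 ± 0.05 in mice labelled knockout and -0.16 ± 0.05 in wild-type mice, and Mapk3, the kinase ERK1, rose in wild-type mice at 0.56 ± 0.08. In mice labelled knockout Map2k1 at -0.18 ± 0.07 and Mapk3 at 0.20 ± 0.08 did not pass (edgeR adjusted p = 0.1 and 0.114). In wild-type mice the kinase subunit gene Camk2b fell at -0.14 ± 0.04 and Camk2a rose at 0.16 ± 0.05, and Camk2a was named after its values were seen. Between the genotypes 0 effector and 0 signalling genes passed after either injection, and 0 genes of the 3 lists passed for the interaction. The smallest p belonged after LPS to Inhba (-0.30 ± 0.15), Vgf (-0.09 ± 0.06) and Cort (-0.42 ± 0.27) among effectors and to Crem (0.28 ± 0.14), Mapk3 (-0.13 ± 0.08) and Mef2c (-0.07 ± 0.05) among signalling genes, as log2 differences. After PBS they belonged to Rasgrp1 (-0.18 ± 0.06), Inhba (-0.36 ± 0.13) and Homer1 (-0.19 ± 0.08), and to Mapk3 (0.23 ± 0.08), Camk2b (-0.08 ± 0.04) and Elk1 (0.11 ± 0.07). For the interaction they belonged to Per1 (-0.40 ± 0.10), Trib1 (-0.35 ± 0.12) and Klf6 (-0.26 ± 0.10) among the rapidly induced genes, to Homer1 (0.28 ± 0.11), Rasgrp1 (0.18 ± 0.09) and Nrn1 (0.29 ± 0.15) among effectors, and to Mapk3 (-0.36 ± 0.11), Crem (0.38 ± 0.19) and Camk2b (0.07 ± 0.06) among signalling genes.

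**Figure D3:**
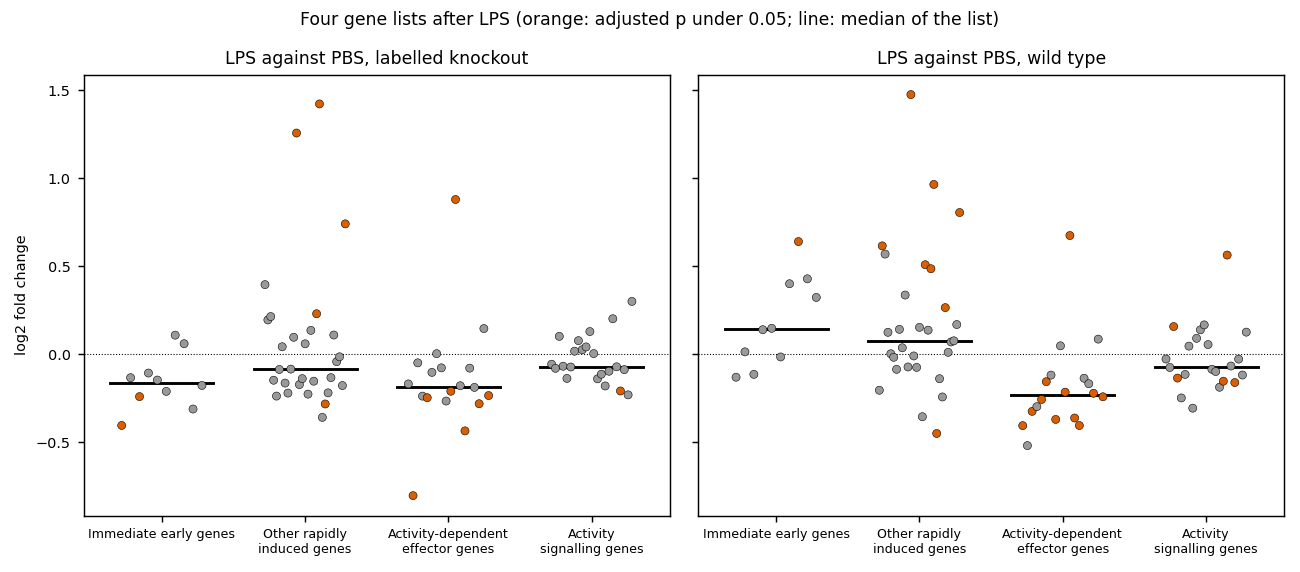
Log2 fold changes after LPS (vertical axis) for the 10 immediate early genes and 3 related lists, in the labelled knockout on the left and the wild type on the right, with a line at each median. Effector genes have medians of -0.18 (labelled knockout) and -0.23 (wild type), while the immediate early genes have -0.16 (labelled knockout) and 0.14 (wild type).

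Markers of cell types moved in the same comparisons, in which LPS raised 7.05% and lowered 3.82% of all genes in mice labelled knockout and raised 10.9% and lowered 7.12% in wild-type mice. Summed CPM of 7 microglial markers ranged over 328 to 454 after LPS and 181 to 214 after PBS in mice labelled knockout, and 408 to 517 after LPS and 183 to 230 after PBS in wild-type mice, with 6 of 7 called higher in each genotype. For 7 endothelial markers the sums were 435 to 490 after LPS and 220 to 281 after PBS in mice labelled knockout, and 472 to 564 after LPS and 238 to 271 after PBS in wild-type mice, with 7 of 7 called higher in each. Meningeal and fibroblast markers summed to 132 to 198 after LPS and 78.9 to 116 after PBS in mice labelled knockout, and to 157 to 205 after LPS and 107 to 133 after PBS in wild-type mice, without overlap in either, with 3 of the 6 tested called higher in mice labelled knockout and 2 in wild-type mice. Of 6 blood markers tested 2 were called higher and 4 lower in each genotype. Alongside the fall of Egr1 and Arc, 4 of 11 markers of forebrain excitatory neurons were called lower in mice labelled knockout, with sums of 1260 to 1380 after LPS and 1290 to 1530 after PBS, and 6 of 8 cerebellar markers, with sums of 840 to 1010 after LPS and 904 to 1230 after PBS. In wild-type mice 1 excitatory marker was called higher and 1 lower, and 2 cerebellar markers lower. Of 7 astrocyte markers 4 were called higher in mice labelled knockout and 5 in wild-type mice, where 1 was lower, and of 7 oligodendrocyte markers 2 were higher and 3 lower in each genotype. Of 7 inhibitory neuron markers 1 was lower in each genotype, and of 7 striatal markers 1 was lower in mice labelled knockout, while in wild-type mice 1 was higher and 2 lower. Between the genotypes, 3 of 7 olfactory bulb markers were called lower in mice labelled knockout after PBS, where 0.0904% of all genes were. After LPS 4 of 7 were, where 0.786% of all genes were called lower and 0.264% higher. Of the endothelial markers 1 was lower after PBS and 2 after LPS. After LPS 1 microglial, 1 astrocyte and 1 inhibitory neuron marker were also lower and 1 striatal marker was higher. No marker of the other lists was called between the genotypes. The part of any of these in the immediate early genes was not tested.

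Immediate early genes other than Egr1 varied more between libraries of 1 group than most genes did. The SD of log2 CPM within groups was 0.405 for Fos, larger than in 97.8% of 12002 genes with a mean of at least 5 CPM, and 0.391 for Npas4, larger than in 97.3%. The median gene had 0.166. The genes compared were not matched on level, so these SD include counting noise. Such noise is larger for scarce genes, among them Egr2 with 10 to 67 counts per library, and was not separated from variation between mice. Dusp1, Egr2, Nr4a1, Ier2, Junb, Arc and Fosb lay between 0.263 and 0.354, while Egr1 at 0.137 exceeded 35.0% of genes only. This spread bears on what could be detected, since the 95% interval of Fos in wild-type mice spanned -0.19 to 0.48 and that of Egr1 -0.24 to 0.01.

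Part of this variation was shared by the genes. Deviations from the group mean were correlated over the 24 libraries for each of the 45 pairs, and all 45 Pearson coefficients were above 0, with a median of 0.488 and a range of 0.138 to 0.777. With permutation within groups and adjustment over the 45 pairs, 21 passed by Pearson and 22 by Spearman, 21 of them by both. Pairs of other genes of similar level were not run, so these shares have no background. Fos and Nr4a1 gave r = 0.777 (permutation p = 4e-05, adjusted 0.0009; rho = 0.761). Nr4a1 and Dusp1 gave 0.777, Fos and Dusp1 0.757, Junb and Dusp1 0.748, and Nr4a1 and Ier2 0.729. A second set of high values joined Arc with Egr1 at 0.643 and with Egr2 at 0.635. Junb and Nr4a1 took part in 7 passing pairs each and Fosb in 1, with Egr1. The 4 genes whose promoters are printed above were those of the highest pairs. The median r was 0.451 without the 2 libraries farthest on the first gene of each pair.

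**Figure D4:**
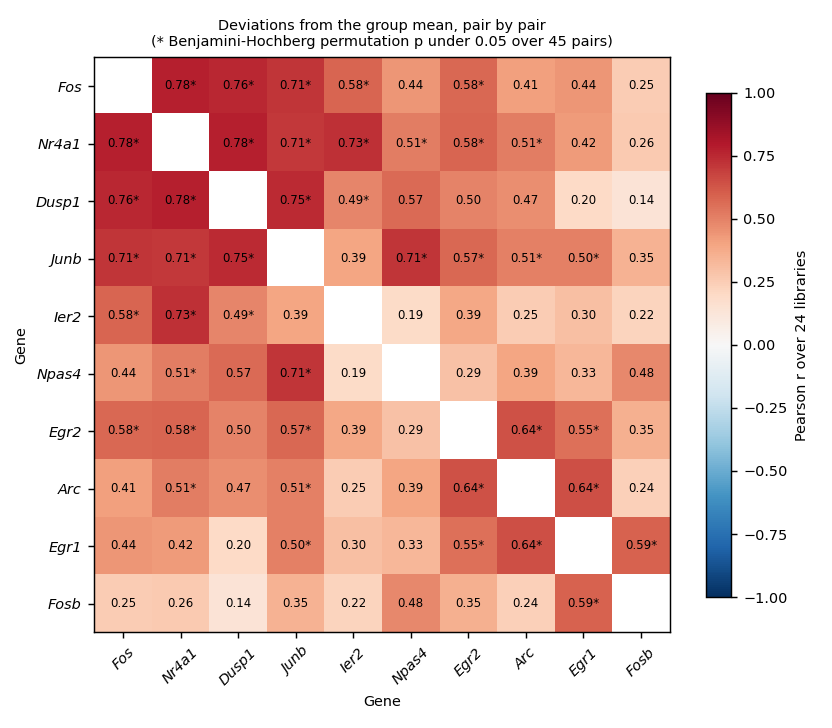
Pearson r between the deviations of 2 genes from their group means over 24 libraries, as colour and number, with an asterisk where the adjusted permutation p is under 0.05. Fos, Nr4a1, Dusp1 and Junb have r of at least 0.707 with each other, and the Fosb row is the palest.

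The shared deviation can be read library by library. In labelled knockout LPS mouse 1 all 10 genes lay above their group mean and in mouse 2 of that group 0 of 10 did. Wild-type LPS mouse 3 and wild-type PBS mouse 1 also had all 10 above, while wild-type PBS mice 5 and 6 had 0 and 1 above. Mice labelled knockout after PBS were the most even, with 2 to 8 genes above the mean in each library. The shallowest libraries were low in this pattern, and the correlations with depth that follow are descriptions. Replicate 2 of the labelled knockout LPS group and replicate 6 of the wild-type PBS group, 2595387 and 2340184 counts, had the lowest mean deviations. The mean deviation of the 10 genes went with depth at r = 0.522 and rho = 0.434 over 24 libraries, and at r = 0.234 without those 2 libraries. Within groups of 6 r was 0.867 in mice labelled knockout after LPS and -0.255 in those after PBS, and 0.261 in wild-type mice after LPS and 0.632 in those after PBS. With depth regressed out 11 of the 45 pairs passed and 43 were above 0, with a median r of 0.419, and without those 2 libraries 11 passed and 43 were above 0, with a median of 0.42. Both of these settings were chosen after seeing the data. The mean deviations are also given by replicate number, in the order labelled knockout LPS and PBS, then wild-type LPS and PBS. Number 1 had 1.387, -0.104, 0.261 and 1.176, and number 2 had -1.504, -0.518, -0.8 and 0.094. Number 3 had 0.372, 0.44, 0.981 and -0.026, and number 4 had 0.007, 0.466, 0.25 and 0.218. Number 5 had 0.03, -0.736, -0.159 and -0.424, and number 6 had -0.293, 0.452, -0.533 and -1.039. The part of number in the shared deviation was not tested.

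**Figure D5:**
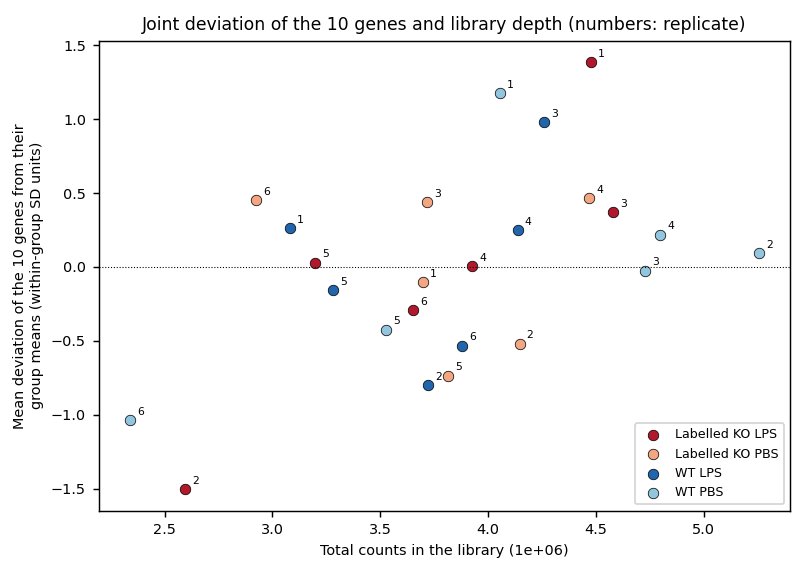
Mean deviation of the 10 genes from their group means (vertical axis, within-group SD units) against total counts per library (horizontal axis), with replicate numbers beside the points. The 2 shallowest libraries, replicate 6 of WT PBS and replicate 2 of the labelled knockout LPS group, are also the 2 lowest.

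Among 11992 other genes with a mean of at least 5 CPM, those whose deviations were most like the mean deviation of the 10 were St6gal1 (r = 0.778), Dcn (0.75), Coro1a (0.711), Echs1 (0.702), Hdhd5 (0.701), Kcnj10 (0.697), B230303A05Rik (0.695) and Psmc4 (0.695), each over 24 libraries. The median r over all of these genes was 0.01, and these 8 are the top of a ranking that size. None of the other rapidly induced genes was among the top 30, although the median r of the 28 that were ranked was 0.37. That is not particular to them, since the 7 astrocyte markers had a median r of 0.38, with a range of -0.284 to 0.609. The summed level of the astrocyte markers gave r = 0.16 and rho = 0.221 (r = -0.051 without the 2 farthest libraries). Dcn, the decorin gene of fibroblasts, belongs to the meningeal and fibroblast markers, whose summed level went with the mean deviation of the 10 genes at r = 0.572 and rho = 0.548 (r = 0.511 without the 2 farthest libraries). Dcn, at a mean of 64.2 CPM, holds much of that sum, which ranged over 78.9 to 205 CPM. Among the 4 markers of that list that were ranked, Slc6a13 gave r = 0.453, Col1a2 0.195 and Col1a1 -0.108. The summed level of the other rapidly induced genes gave r = 0.573 and rho = 0.471 (r = 0.64 without the 2 farthest libraries). The summed effector genes gave r = 0.399 and rho = 0.441 (r = 0.422 without the 2 farthest libraries). The summed excitatory neuron markers gave r = -0.168, the microglial markers 0.317 and the endothelial markers 0.326. These are descriptions over libraries that share depth and dissection, and the part of any of them in the shared variation was not tested.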

How the data were processed

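The deposited values are raw counts of QuantSeq 3′ tags per gene, 1 column for each of 24 mice. The authors made the counts from 100 ng of total RNA of the left hemisphere, per the labels' protocols, with bcl2fastq, STAR 2.7.3a and featureCounts of Subread 2.0.0 on mm10 (GRCm38), and R 3.6.1 and DESeq2 1.26.0 are also named, per the submitters' processing notes. The strand setting, the annotation release and the treatment of reads with several matches are not stated in the labels, and all 3 can change counts of overlapping genes. Gene positions are from GENCODE M21, which gave 55240 of 55421 rows a position, and symbols were matched for 55154.

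Genes were kept by edgeR's filterByExpr with a minimum count of 10, scaled by TMM, and fitted in edgeR 4.0.16 (R 4.3.3) with a quasi-likelihood model of 4 group means on all 24 libraries. The contrasts were LPS against PBS in each genotype, the genotypes with each other after LPS and after PBS, and the interaction, with Benjamini-Hochberg adjustment over 14380 genes. Log2 CPM used a prior count of 2. Single genes were also tested by exact permutation of 2 groups of 6, and correlations between genes by 100000 permutations within groups (SciPy 1.17.1). The scripts were tested on simulated data. Alternatives were DESeq2 1.42.0, RLE scaling, no filter or a mean of at least 2 CPM, robust empirical Bayes, a replicate block, the 2 groups alone, wild-type LPS mice 1 and 2 left out, and each library left out.

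Replicate pairs within groups differed by more than sampling noise, with chi-square values per degree of freedom of 1.41 to 4.74, so no library was counted as a repeat of another. The labels give 6 animals per group. Nothing in the labels says that a number is shared between groups, so numbers were not used to pair mice. All 10 genes were named, with the 3 genes of smallest p from each related list in each comparison and the 8 genes most like the 10 in their deviations. The 10 genes and the lists were chosen with earlier results of these data known. The values of 1 gene of the signalling list are not reported here.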

Additional observations from a re-analysis of the deposited data

Results flagged for a closer look

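Nr4a1 in wild-type PBS mouse 1 was far above the other 5 mice of its group, at 106 CPM where the next highest was 72.0 CPM and the lowest 58.1 CPM. Its gap to the next mouse was 0.71 of the range of the group, above Dixon's limit for 6 samples. It was the 1 case among the 40 combinations of gene and group examined, and chance alone gives such a gap in about 1 in 20 groups. In that mouse all 10 genes lay above their group mean. Without it the log2 change of Nr4a1 after LPS in wild-type mice was 0.45 (edgeR adjusted p = 0.0142), against 0.32 (edgeR adjusted p = 0.0947) with it.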

How the results depend on the processing

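Junb in wild-type mice and Egr1 in mice labelled knockout kept direction and call in all 33 alternatives, and the Arc call in mice labelled knockout was kept in 26 of 33. The 33 include refits without a library of the genotype not compared and the permutation test at its unadjusted p. In mice labelled knockout after LPS the count of called genes was 2. DESeq2 and robust empirical Bayes each called 1 of the 10 genes there, in place of 2, and leaving out single libraries gave 1 to 2. In wild-type mice after LPS the count was 3 with no low-count filter and 2 with the 2 groups alone, in place of 1, and 1 to 4 with single libraries left out. For labelled knockout against wild type after PBS it was 2 with no filter and 1 with the 2 groups alone, in place of 0, and for the interaction 3 with no filter and 1 without wild-type LPS mice 1 and 2, in place of 0. The causes were not tested.

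Over all genes, the count for labelled knockout against wild type after LPS was 151, and 561 without wild-type LPS mice 1 and 2, 293 with no filter and 72 to 289 with single libraries left out. After PBS it was 19, and 36 without those mice, 88 with no filter, 33 with the 2 groups alone and 13 to 32 with single libraries left out. The interaction count was 1, and 249 without those mice, 67 with no filter, 2 in DESeq2, 3 with robust empirical Bayes and 1 to 20 with single libraries left out. The interaction has no version with 2 groups alone, which was not run. Wild-type LPS mice 1 and 2 were low in olfactory bulb markers, and the part of that in these counts was not tested. Over the 3 related lists together, genes called between the genotypes after LPS numbered 2, and 4 without those mice, 1 with the 2 groups alone and 1 to 2 with single libraries left out. After PBS they numbered 0, and 2 with no filter, 1 each without those mice, in DESeq2, with the 2 groups alone and with robust empirical Bayes, and 0 to 1 with single libraries left out. For the interaction they numbered 0, and 4 without those mice, 2 with no filter and 0 to 1 with single libraries left out.

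Signs turned only among log2 changes that were never called. Dusp1 in wild-type mice was 0.01, but -0.0101 with no filter, -0.11 without wild-type LPS mice 1 and 2 and -0.043 to 0.092 with single libraries left out. Fosb in wild-type mice was -0.02, but 0.12 without those mice and -0.070 to 0.067 with single libraries left out. Junb in mice labelled knockout ranged over -0.050 to 0.15 with single libraries left out. For labelled knockout against wild type after LPS, Fos was 0.02, but -0.001 in DESeq2, -0.0169 as a difference of mean log2 CPM and -0.073 to 0.14 with single libraries left out. In that comparison, without those mice, Dusp1 was 0.10 and Ier2 -0.0045. With single libraries left out there, Dusp1 ranged over -0.16 to 0.0765, Ier2 over -0.059 to 0.18, Arc over -0.16 to 0.073, Egr1 over -0.10 to 0.004 and Nr4a1 over -0.18 to 0.061.

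With the replicate block 3 of the 10 genes were called after LPS in wild-type mice, Nr4a1 (adjusted p = 0.0221 in edgeR) and Npas4 (0.025) beside Junb, and 1 between the genotypes after PBS, Nr4a1 (0.036). Over all genes the block gave 273 calls between the genotypes after LPS, 39 after PBS and 8 for the interaction, and 1 related gene after PBS. The deviations of same-numbered libraries had a mean r of 0.029 over 36 pairs (-0.077 to 0.165, 2 of them over 0.1). Those of differently numbered ones had -0.006 over 180 pairs (-0.157 to 0.128, 1 of them over 0.1). The numbers were not used to pair the mice because no label says that they are shared, and these values do not settle it. Of the 24 libraries 12 correlated best with a library of their own number, a hint from the data and not from the design. That is a larger share than same-numbered pairs hold, at 36 against 180 differently numbered ones. Whether a number marks something shared by the mice was not tested. The correlations between pairs of genes gave 11 passing pairs with depth regressed out and 11 without the 2 shallowest libraries, in place of 21. Depth limited Egr2 most, with 10 counts in its lowest library.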
